A study of Homo sapiens with 2 samples.

Results

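The genes described here encode the methionine cycle, the transsulfuration route that leads out of it, and the first step of cysteine breakdown. They are MAT1A, MAT2A, AHCY, BHMT, GNMT, MTR, CBS, its near-identical copy LOC102724560, CTH and CDO1, a set of 10 of the 19927 genes in the count table. They were taken by name, and the 2 CBS copies were also summed, which leaves 9 genes. mRNA levels were measured by RNA sequencing of Huh7, an established line of human hepatocellular carcinoma cells. The compared libraries are 1 from cells kept for 48 h with homochlorcyclizine dihydrochloride, an antihistamine, and 1 from cells kept for 48 h with DMSO, its solvent. The sources used here give no dose, and nothing names a second culture of either kind. Each difference below is therefore a difference between 2 libraries, with no replicate check and no p-value.

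In the methionine cycle, methionine adenosyltransferases turn methionine into S-adenosylmethionine, the methyl donor of most cellular methylation. Giving up the methyl group leaves S-adenosylhomocysteine, which AHCY splits to homocysteine. Homocysteine is either methylated back to methionine by MTR or BHMT, or joined to serine by CBS and then cut by CTH to yield cysteine. The adult liver is the main site of these reactions. Hepatocytes use MAT1A, GNMT and BHMT, while growing cells and liver tumours are known for MAT2A in place of MAT1A.

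The homochlorcyclizine library, also called treated below, held 40791119 counts and the DMSO library 38133894. All 10 hepatocyte markers examined were present, at 21.1 to 8540 CPM (counts scaled to the library total) with homochlorcyclizine and 35.6 to 11781 CPM with DMSO. Markers of other cell types were not all absent, and their part in the results was not tested. Of 6 leukocyte markers, 3 reached 1 CPM in each library, and the list summed to 547 CPM with homochlorcyclizine against 464 CPM with DMSO. Lysozyme (LYZ) supplied 527 CPM of the treated sum and 446 CPM of the DMSO sum, while the leukocyte gene PTPRC had 6 treated and 2 DMSO counts. In the treated library the 5 cholangiocyte markers summed to 921 CPM, the 6 fibroblast markers to 37.9 CPM and the 5 endothelial markers to 5.92 CPM, and in the DMSO library to 778, 31.8 and 12.0 CPM. The most abundant marker of these lists was EPCAM for cholangiocytes, at 386 treated and 341 DMSO CPM. For fibroblasts it was LUM (27.3 treated and 21.3 DMSO CPM) and for endothelial cells PECAM1 (5.63 treated and 11.7 DMSO CPM). KRT7, COL1A2, KDR and TEK had 0 counts in both libraries. In a bulk library, fewer cells of a type and less RNA per cell cannot be told apart.

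Of the 9 genes, 1 was higher by the size rule used throughout, which asks for at least 2-fold, a 95% counting interval that excludes 1, and a library mean of 1 CPM or more. That gene was CTH, the enzyme that releases cysteine. The rule found none lower. That mean was reached by 12353 genes in all, of which 5.81% were higher and 5.10% lower. Of the 9 genes, 7 passed the filter on low values, too few to set their share of calls apart from that background. The median log2 ratio of the 7 was -0.09, against -0.01 over all genes tested. The other 6 were within 1.5-fold in either direction. BHMT, at a mean of 0.850 CPM, lay just under the filter, and GNMT was at or near 0.

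CBS and its copy are nearly the same in sequence, which bears on what the counts of each row mean. CBS lies on chromosome 21 at 43053191 to 43076873 and LOC102724560 on the same chromosome at 6444869 to 6468621 (RefSeq, GRCh38.p14). The copy is named CBSL in GENCODE release 29. The 2353-base coding transcripts CBS-202 and CBSL-203 differ at 1 base, and so do the 2453-base transcripts CBS-203 and CBSL-206. Counted from the 5′ end of CBS-202 the difference is C921T, with the CBS base first. It lies in exon 8 of 18, at base 699 of the coding sequence. Both codons, TAC and TAT, encode tyrosine. The 41 bases around it are given 5′ to 3′ as in the mRNA (minus strand of GRCh38), with the differing base in capitals.
CBS, chr21:43065220-43065260: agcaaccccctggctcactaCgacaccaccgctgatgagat
CBSL, chr21:6456898-6456938: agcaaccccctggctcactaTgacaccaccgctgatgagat
Of the 2204 stretches of 150 bases along these transcripts, 2054 (93.2%) were identical in the copy. Of the 2054 stretches of 300 bases, 85.4% were identical. Over all annotated coding transcripts (8 for CBS and 5 for the copy), 74.9% of the distinct 150-base stretches of CBS and 69.1% of the 300-base stretches were identical in the copy. The sources used here give no read length.

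CBS makes cystathionine from homocysteine and serine, the entry to transsulfuration. The CBS row held 1685 counts with homochlorcyclizine and 2471 with DMSO. The LOC102724560 row held 918 counts with homochlorcyclizine and 23 with DMSO. The copy thus carried 35.3% of the pair's counts in the homochlorcyclizine library (exact binomial interval 33.4% to 37.1%) and 0.922% in the DMSO library (0.585% to 1.38%). Taken alone, the CBS row gave a ratio of 0.640 (0.601 to 0.681) and the copy's row a ratio of 36.0 (24.8 to 59.4). The sums were 2603 counts with homochlorcyclizine and 2494 with DMSO, or 63.9 treated against 65.3 DMSO CPM, a ratio of 0.980 (0.927 to 1.04). The summed counts of the pair thus did not differ beyond counting error, while their division between the rows did. How reads that match both copies were handled is not given, so the sum may not hold all reads of the pair.

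Of other genes on chromosome 21 with a copy annotated on the short arm, U2AF1 and SIK1 were divided between rows as well. Whether any of these annotated copies, that of CBS included, is a separate gene in Huh7 cells was not tested. U2AF1, a splicing factor subunit, had 26 counts with homochlorcyclizine and 52 with DMSO, and its copy LOC102724594 had 2827 treated and 2298 DMSO counts. The copy's share was 99.1% (98.7% to 99.4%) with homochlorcyclizine and 97.8% (97.1% to 98.3%) with DMSO. SIK1, a salt-inducible kinase, had 107 counts with homochlorcyclizine and 196 with DMSO, and its copy LOC102724428 had 2035 treated and 978 DMSO counts. Here the interval of the copy's share ran from 94.0% to 95.9% with homochlorcyclizine and from 81.0% to 85.4% with DMSO. In each of the 3 pairs the copy's share was higher in the homochlorcyclizine library, with intervals that did not overlap, and the differences were 34.3 percentage points for CBS, 1.30 for U2AF1 and 11.7 for SIK1. The copies of SMIM11 and KCNE1 had 0 counts in both libraries, and the CRYAA pair had 1 count in all.

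**Figure D1:**
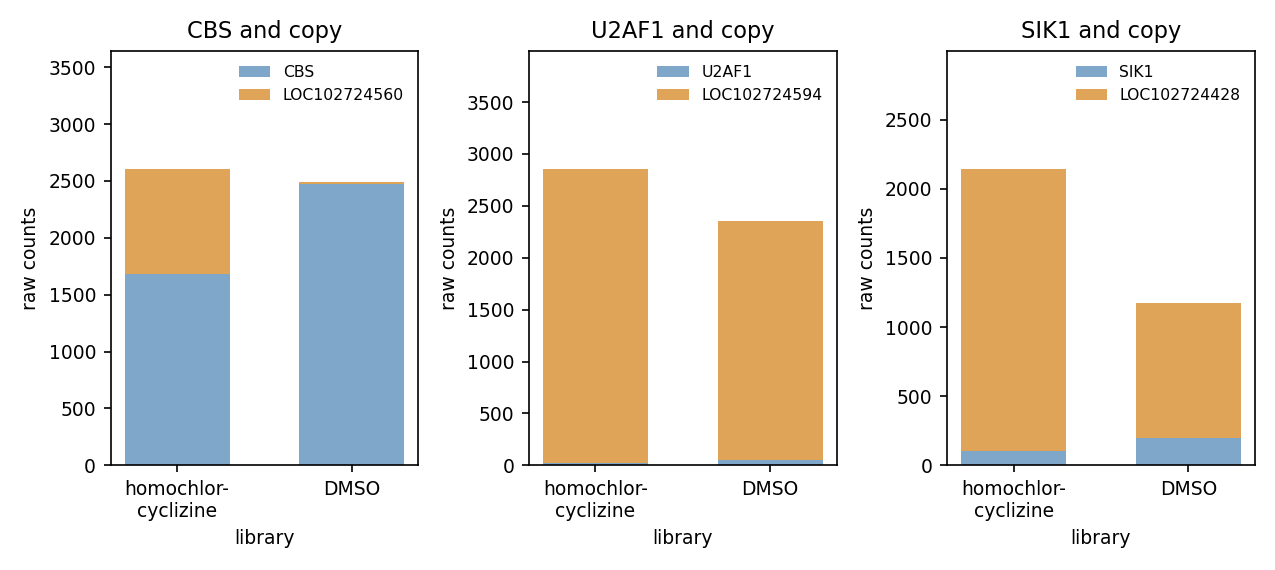
Raw counts of CBS, U2AF1 and SIK1 (blue) stacked with those of their near-identical copies on chromosome 21 (orange), in the homochlorcyclizine and the DMSO library (1 each). The copy of CBS holds 918 of 2603 counts with homochlorcyclizine and 23 of 2494 with DMSO, while the summed bars of CBS are of similar height. Those of SIK1 are not, at 2142 counts with homochlorcyclizine and 1174 with DMSO.

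CTH, cystathionine gamma-lyase (chromosome 1, 70411268 to 70439851), had 1958 counts with homochlorcyclizine and 803 with DMSO. These are 48.1 CPM with homochlorcyclizine and 21.01 CPM with DMSO, a ratio of 2.29 (2.11 to 2.49). Both enzymes of transsulfuration were present in both libraries, and of the pair CTH alone was past 2-fold. On the scale per length, FPKM (counts scaled to gene length and library total), CTH stood at 1.09 times the summed CBS level with homochlorcyclizine and at 0.460 times with DMSO. The ratio of these ratios was 2.34 (2.11 to 2.58), a value that does not depend on how the libraries are scaled. These values take the CBS sum as counted, which may lack reads that match both copies.

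The 250 bases before the annotated start of CTH (RefSeq, GRCh38.p14, plus strand) are shown because CTH is the member past 2-fold. The capitals mark the letters CCAAT.
CTH, chr1:70411018-70411267: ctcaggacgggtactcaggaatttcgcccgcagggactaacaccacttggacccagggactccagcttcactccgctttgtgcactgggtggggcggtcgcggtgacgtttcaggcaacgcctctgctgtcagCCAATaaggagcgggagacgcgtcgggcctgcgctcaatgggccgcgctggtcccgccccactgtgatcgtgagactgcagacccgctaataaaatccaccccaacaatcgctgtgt
All 10 members matched the RefSeq promoter table, in windows of 300 bases that run 50 bases past the start. Letters were searched on both strands. CCAAT was found for 7 of the 10 members (CTH, CBS, its copy, GNMT, MAT1A, MAT2A and MTR) and for 39.7% of 27305 genes. A match in any window of a gene counted, and a gene with more windows has more room for a match. The members had 18 windows and all genes 35116. CBS and its copy were counted as separate members. TGATGNAA, the core of the amino acid response element that ATF4 binds, was found for 1 member, LOC102724560, in 1 of its 4 windows, and for 4.46% of genes. TGACNNNGC, the core that NRF2 binds, was found for CBS and its copy and for 16.1% of genes. CACGTG, an E-box that is its own reverse complement, was found for the copy and for 8.77% of genes. The element found in 1 copy of CBS and not in the other stands in a window that the table holds for the copy alone. A match is a match of letters in these windows only.

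The adenosyltransferases went in opposite directions by small amounts. MAT2A, the form of growing cells (chromosome 2, 85539168 to 85545281), had 7972 counts with homochlorcyclizine and 8796 with DMSO, or 196 treated against 230 DMSO CPM. The ratio was 0.851 (0.825 to 0.877). MAT1A, the form of adult hepatocytes (chromosome 10, 80271820 to 80289658), had 288 counts with homochlorcyclizine and 197 with DMSO, or 7.07 treated against 5.16 DMSO CPM. Its ratio was 1.37 (1.14 to 1.65). Neither was past 2-fold, and both intervals exclude 1.

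Per length, MAT2A was by far the more abundant form in each library. It stood at 69.4 FPKM with homochlorcyclizine and 81.9 FPKM with DMSO, and MAT1A at 2.09 FPKM with homochlorcyclizine and 1.53 FPKM with DMSO. MAT1A made up 2.92% (2.60% to 3.27%) of their summed FPKM with homochlorcyclizine and 1.83% (1.59% to 2.10%) with DMSO. MAT1A relative to MAT2A was 1.61-fold higher with homochlorcyclizine (1.34 to 1.95). The coding transcripts of MAT1A and MAT2A share no identical stretch of 50 bases, so their counts are not divided as those of CBS are.

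AHCY, which removes S-adenosylhomocysteine (chromosome 20, 34231981 to 34311836), was the most abundant member. It had 16951 counts with homochlorcyclizine and 21136 with DMSO, or 416 treated against 553 DMSO CPM. The ratio was 0.753 (0.738 to 0.768), lower in the homochlorcyclizine library but not past 2-fold. AHCY relative to MAT2A was 0.885 (0.853 to 0.918) with homochlorcyclizine over DMSO.

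GNMT, which uses up S-adenosylmethionine in hepatocytes by methylating glycine (chromosome 6, 42960754 to 42963880), had 0 counts with homochlorcyclizine and 1 with DMSO. A count of 0 leaves room for a level of 3 counts, or 0.0737 CPM with homochlorcyclizine and 0.0785 CPM with DMSO. No ratio is given, since both values are at or under that limit.

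MTR and BHMT methylate homocysteine back to methionine. MTR, the cobalamin-dependent methionine synthase (chromosome 1, 236795281 to 236903981), had 1422 counts with homochlorcyclizine and 1784 with DMSO. These are 34.9 CPM with homochlorcyclizine and 46.7 CPM with DMSO, a ratio of 0.748 (0.697 to 0.803). Its ratio was close to that of AHCY, and neither was past 2-fold. BHMT, which takes the methyl group from betaine (chromosome 5, 79111809 to 79132288), had 17 counts with homochlorcyclizine and 49 with DMSO. These are 0.418 CPM with homochlorcyclizine and 1.28 CPM with DMSO, a ratio of 0.339 (0.176 to 0.575). BHMT met the size and interval parts of the rule but not the filter on low values.

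Per length, BHMT made up 4.73% (2.80% to 7.38%) of the summed FPKM of BHMT and MTR with homochlorcyclizine and 10.2% (7.75% to 13.1%) with DMSO. BHMT relative to MTR had a ratio of 0.435 (0.234 to 0.773). The paralog BHMT2, which methylates homocysteine from S-methylmethionine and is named here after its values were seen, was far more abundant. BHMT2 had 3734 counts with homochlorcyclizine and 3770 with DMSO, or 36.5 FPKM with homochlorcyclizine and 39.4 FPKM with DMSO. BHMT had 0.169 FPKM with homochlorcyclizine and 0.520 FPKM with DMSO. The BHMT2 ratio was 0.930 (0.888 to 0.973). Of the coding BHMT transcripts, 0.681% of the 150-base stretches and 4.69% of the 50-base stretches are identical in BHMT2. Reads from these stretches could be assigned to either gene. BHMT2 has far more counts, so even a small part of its reads would be large beside the BHMT row. Whether the BHMT counts hold such reads was not tested.

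CDO1, cysteine dioxygenase, which commits cysteine to sulfinate and taurine (chromosome 5, 115804733 to 115816659), had 266 counts in each library. Scaled, these are 6.53 CPM with homochlorcyclizine and 6.96 CPM with DMSO, a ratio of 0.939 (0.789 to 1.12). At this depth a difference within that interval was not detectable.

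Ordered per length, the homochlorcyclizine library ran from AHCY at 128 FPKM through MAT2A, CTH at 25.0 FPKM, the CBS sum at 23.0 FPKM, CDO1, MTR and MAT1A to BHMT at 0.169 FPKM. The DMSO library ran from AHCY at 171 FPKM through MAT2A, the CBS sum at 23.9 FPKM, CTH at 11.0 FPKM, MTR, CDO1 and MAT1A to BHMT at 0.520 FPKM. CTH and the CBS sum changed places, as did CDO1 and MTR. The intervals of CDO1 and MTR overlap in both libraries, so their order is not resolved. With homochlorcyclizine the intervals of CTH (23.9 to 26.2 FPKM) and of the CBS sum (22.1 to 23.9 FPKM) only just part. The place of the CBS sum also rests on reads that match both copies having been kept.

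**Figure D2:**
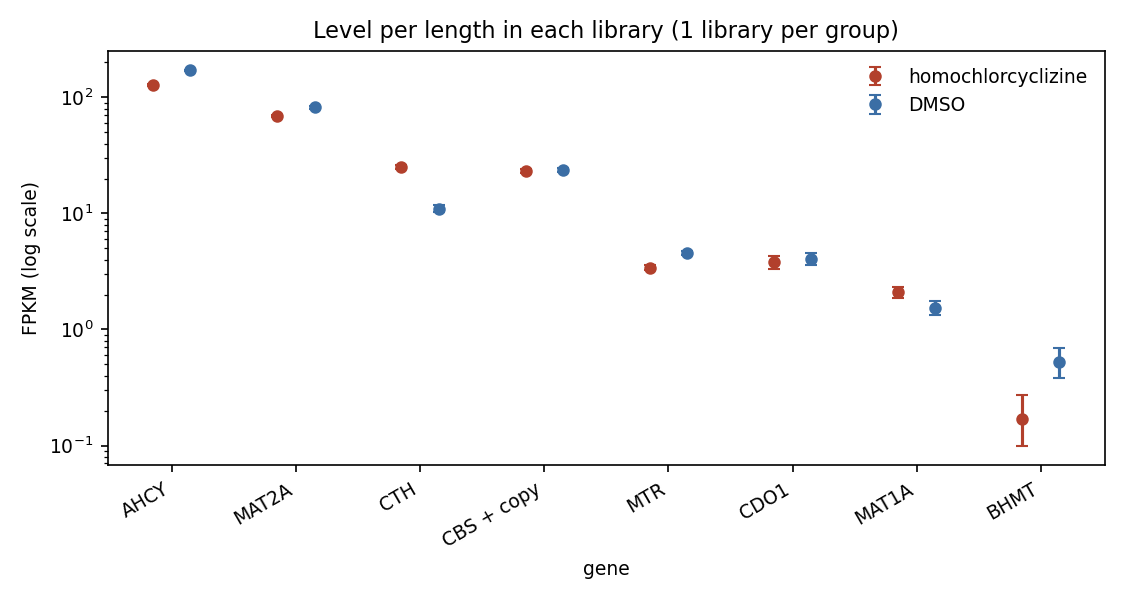
FPKM (log axis) of the members in the homochlorcyclizine library (red) and the DMSO library (blue), 1 library each, with 95% Poisson counting intervals. GNMT, with 0 and 1 counts, is left out. CTH stands at 25.0 against 11.0 FPKM, and MAT2A stands far above MAT1A in each library.

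**Figure D3:**
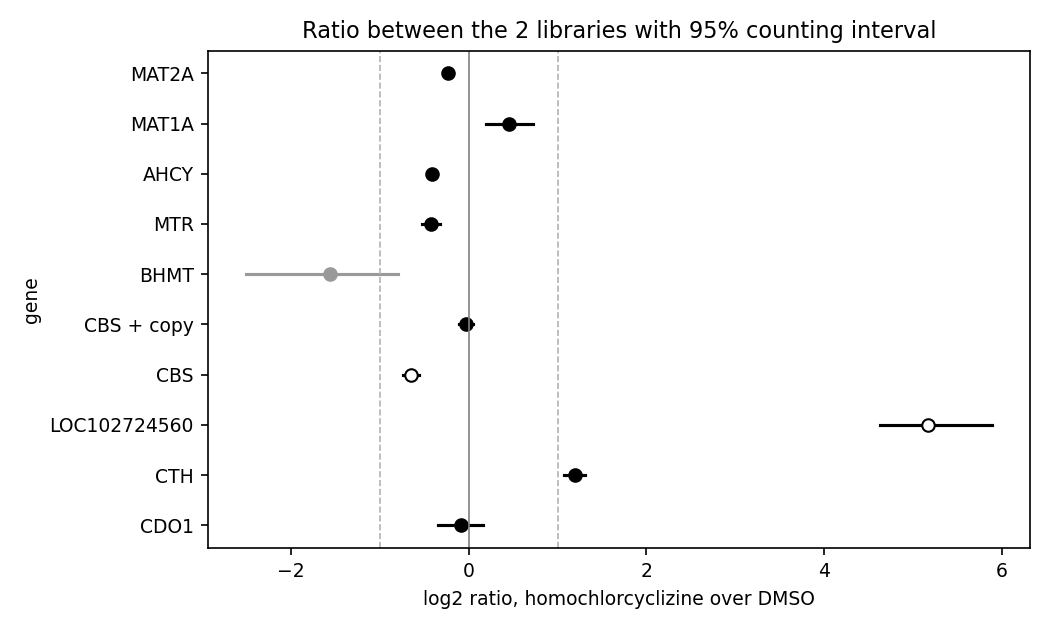
Log2 ratio of homochlorcyclizine over DMSO for each member except GNMT, with 95% counting intervals. Dashed lines mark 2-fold, grey marks BHMT, which lies under the filter on low values, and open circles are the CBS copies taken apart. The copy LOC102724560 lies at 5.17 and CBS at -0.64, while their sum lies at -0.03 and CTH at 1.19.

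Genes that feed or drain the cycle were described by 8 lists with 76 genes in the table, of which 73 passed the filter. By the size rule 9 were higher and 8 lower, against 5.81% higher and 5.10% lower of all genes, and the median log2 ratio was -0.13. Of the 73, 31 had a ratio above 1 and 42 below. Of all 12353 genes that passed, 6046 were above 1 and 6307 below, the background for such counts in the lists that follow. Most of the genes higher or lower by the rule came from the lists of amino acid transport, folate and cobalamin supply, and glutathione turnover. These held 12, 15 and 9 of the 73 genes, in that order. All 8 lists were written with earlier results of these data known, so they are not independent evidence of a direction.

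Of 12 transporters of methionine, cysteine and cystine, 4 were higher, none was lower and 11 had a ratio above 1, with a median log2 ratio of 0.38. SLC7A11 and SLC3A2 together form the cystine-glutamate exchanger, which brings in cystine from outside the cell. SLC7A11 had 10213 counts with homochlorcyclizine and 4525 with DMSO, a ratio of 2.12 (2.05 to 2.19). SLC3A2, the heavy chain shared by several amino acid exchangers, had 24578 treated and 8541 DMSO counts, a ratio of 2.70 (2.64 to 2.77). SLC38A2, a sodium-coupled carrier of small neutral amino acids that include methionine, had 24931 treated and 10129 DMSO counts, a ratio of 2.31 (2.26 to 2.36). SLC43A1, a carrier of large neutral amino acids, had a ratio of 2.01 (1.94 to 2.09), at the edge of the rule. Both chains of the cystine exchanger were thus among the higher genes together with CTH, and the CBS sum was not.

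Of 9 genes of glutathione synthesis and breakdown, 1 was higher and 2 were lower, with a median log2 ratio of 0.18. CHAC1, which cleaves glutathione in the cytosol, had 1748 counts with homochlorcyclizine and 440 with DMSO, a ratio of 3.72 (3.36 to 4.15). Its paralog CHAC2 had 183 treated and 431 DMSO counts, a ratio of 0.400 (0.333 to 0.475). The dipeptidase DPEP1 had 52 treated and 129 DMSO counts, a ratio of 0.383 (0.269 to 0.526). GCLC, the catalytic subunit of the rate-limiting enzyme of glutathione synthesis, had a ratio of 1.48 (1.41 to 1.55), under the rule. The CHAC paralogs therefore differed in direction.

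Of 15 genes that supply folate and cobalamin to MTR, 3 were higher and 3 lower, with a median log2 ratio of -0.13. The proton-coupled folate transporter SLC46A1 had 2650 counts with homochlorcyclizine and 1111 with DMSO, a ratio of 2.24 (2.09 to 2.40). TCN2, which carries cobalamin in plasma, had a ratio of 2.10 (1.79 to 2.47). The reduced folate carrier SLC19A1 had a ratio of 0.428 (0.381 to 0.478) and MTHFD1, a cytosolic enzyme of folate interconversion, one of 0.460 (0.434 to 0.488). The folate carriers SLC46A1 and SLC19A1 thus went opposite ways.

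None of the 7 paralogs and partners of the cycle enzymes was past 2-fold, with a median log2 ratio of -0.11. MTRR, which keeps MTR active, had 1708 counts with homochlorcyclizine and 2602 with DMSO, a ratio of 0.616 (0.579 to 0.655). MTRR was thus below 1 together with MTR. AHCYL2, an AHCY-like protein, had a ratio of 1.63 (1.45 to 1.84) and AHCYL1 one of 0.791 (0.764 to 0.819). METTL16, which controls MAT2A mRNA, had a ratio of 0.788 (0.736 to 0.842).

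Among genes that make betaine or use dimethylglycine and sarcosine, 5 passed the filter. All 5 had a ratio below 1 and 1 was lower by the rule, with a median log2 ratio of -0.63. SARDH, sarcosine dehydrogenase, had 1054 counts with homochlorcyclizine and 1999 with DMSO, a ratio of 0.495 (0.459 to 0.534), and was not past 2-fold with upper quartile scaling. ALDH7A1, which oxidises betaine aldehyde among other aldehydes, had a ratio of 0.501 (0.478 to 0.524), just short of the rule, and was past it when libraries were scaled by their totals. DMGDH and PIPOX had ratios of 0.652 and 0.648. SLC6A12, a betaine carrier under the filter on low values, had 48 treated and 14 DMSO counts.

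The 8 genes of methionine salvage and decarboxylated S-adenosylmethionine all had a ratio below 1, with a median log2 ratio of -0.35. SRM, spermidine synthase, was lower by the rule, with 1718 counts with homochlorcyclizine and 3309 with DMSO, a ratio of 0.488 (0.459 to 0.517). MRI1, APIP and ENOPH1 of the salvage route had ratios of 0.667, 0.726 and 0.785. Among 10 genes of cysteine breakdown, taurine and sulfide, 1 was lower, with a median log2 ratio of -0.12. GOT2, the mitochondrial aspartate aminotransferase, had a ratio of 0.499 (0.477 to 0.523), and was not past 2-fold with DESeq2 or upper quartile scaling. SLC6A6, the taurine carrier, had a ratio of 1.26, and SQOR and SUOX, which oxidise sulfide and sulfite, had ratios of 0.755 and 0.753.

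Among 7 measured small-molecule methyltransferases that draw on S-adenosylmethionine, 1 was higher and none lower, with a median log2 ratio of -0.43. NNMT, which methylates nicotinamide, had 560 counts with homochlorcyclizine and 181 with DMSO, a ratio of 2.89 (2.45 to 3.45). GAMT, the last enzyme of creatine synthesis, had a ratio of 0.555 (0.525 to 0.587) and AS3MT, which methylates arsenic, one of 0.596 (0.548 to 0.647). NNMT was thus the 1 consumer of S-adenosylmethionine in this list past 2-fold, in libraries where MAT2A had a ratio of 0.851.

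**Figure D4:**
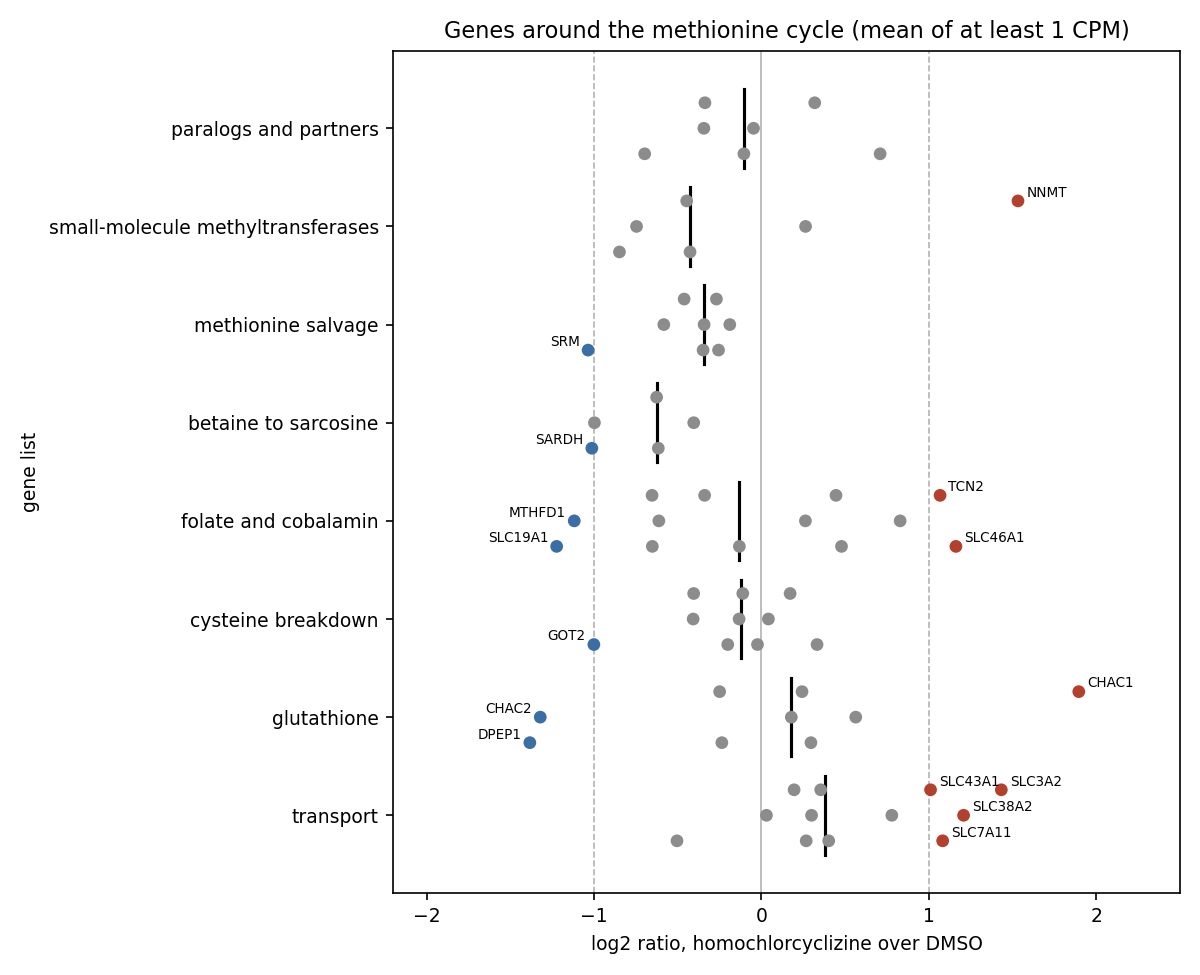
Log2 ratio of homochlorcyclizine over DMSO for 70 genes around the methionine cycle, by list. Each point is 1 gene, black bars are list medians, dashed lines mark 2-fold, red genes are higher and blue genes lower by the size rule. The 4 named transporters lie at 2-fold or above, and no transporter lies below the lower line.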

How the data were processed

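Poly(A)-selected mRNA of Huh7 cells was sequenced, 1 library per group. The authors deposited raw counts per gene for both libraries in 1 table and FPKM values for each library. The build was hg38, per the submitters' processing notes. Aligner, counting program, strand setting, annotation and the handling of reads that match several genes: not given in the sources used here. In 14778 genes with counts in both libraries the deposited FPKM ratio differed from the ratio of counts per total by at most 3.13e-05%, so FPKM was used for levels per length.

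Libraries were scaled with TMM (edgeR 4.0.16, R 4.3.3), and the log2 ratio of CPM was taken with a prior count of 1. Ratios carry exact 95% Clopper-Pearson intervals conditional on the summed count, and levels carry exact Poisson intervals. PCR copies are not independent molecules, so intervals and limits cover counting error only. An interval reaches about 1.62-fold above the ratio at 1 CPM and 1.23-fold at 5 CPM. No statistical test between conditions was made. The calculations used Python 3.11.15, numpy 2.4.6, pandas 2.3.3 and scipy 1.17.1, and the ratio and size rule were tested on simulated data. Pairs of genes were compared within each library by a conditional odds ratio. The MAT and BHMT-MTR pairs were planned, and the CTH-CBS and AHCY-MAT2A pairs were added after values were seen.

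The members, lists and rules were chosen with earlier results of these data known. The text names all members, each called gene of a list and up to 4 listed genes with the largest ratio in either direction. Some listed genes are counted in their list but not reported singly or plotted here. SAMTOR was matched by its older symbol. With 2 libraries each gene has 1 ratio, so no gene was named for a pattern like a member's. Alternatives were other scalings (total, DESeq2 1.42.0 size factors, upper quartile, FPKM), prior counts, filters and a 1.5-fold rule. Transcript sequences come from GENCODE 29 on GRCh38 and promoters from RefSeq on GRCh38.p14, the assembly of hg38.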

Additional observations from a re-analysis of the deposited data

How the results depend on the processing

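With the CBS copies summed, CTH was the 1 member higher by the rule under each scaling, prior count and filter tried, with a log2 ratio of 1.19 to 1.22, and under the 1.5-fold rule. With CBS and LOC102724560 as separate rows 2 members were higher. With no filter on low counts 1 member was lower, BHMT, and 1197 genes in all were higher and 946 lower. The 1.5-fold rule gave 1736 higher and 1736 lower genes. Among pathway genes it gave 13 higher against 9, and 17 lower against 8. The summed CBS log2 ratio ranged from -0.05 to 0.00, so its sign was not resolved, and the other members with a ratio kept their direction. With total scaling 9 pathway genes were lower, with DESeq2 size factors 7 and with upper quartile factors 6. The filter alternatives for the median of the members, and the prior count of 0.25 for counts of calls, were chosen after seeing the data. No paired analysis was possible because each group has 1 library, and no library could be left out. Depth limits BHMT and GNMT most, and spread between cultures was not measured.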
